A study of Bos taurus with 20 samples.

Results

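Nuclear receptors are transcription factors that bind DNA, and many of them change activity when a hormone, vitamin, sterol or fatty acid binds to them. PPARG, the best known of the family in fat, is required for adipocyte differentiation; the receptors described here are 36 other members of the family. They were taken by gene symbol from a table of 33063 named genes, and all 36 were present in the table. Many nuclear receptors bind DNA as a dimer with a retinoid X receptor, so that the retinoic acid, thyroid hormone, vitamin D, oxysterol and fatty acid receptors share a partner. Without a ligand, several of them hold corepressors at their target genes, and others, among them the NR4A group, have no well established natural ligand.

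The measurements are RNA sequencing counts from 20 bovine mesenchymal stem cell (MSC) clones, 10 adipogenic (A) and 10 non-adipogenic (N), with 1 library per clone. The cells came from the inguinal or perirenal fat of 4 Holstein Friesian x Aberdeen Angus calves a few months old, were expanded in serum with bFGF, and were sorted so that each clone grew from 1 cell. A clones were those that made adipocytes when differentiated and stained strongly for lipid, and N clones were those that did not; the RNA was taken from cells that had not been differentiated. Animals 17 and 20 gave 1 A and 1 N clone each, and animals 22 and 23 gave 4 A and 4 N clones each, so clones of the same animal share a donor and the animal was a block in the fit. The clones are descendants of cells that survived sorting and long expansion in culture, and no treatment separates the groups, which differ by the outcome of a differentiation test run on sister cells.

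Total counts ranged from 14908802 to 43111345 in N clones and from 14615493 to 29185355 in A clones, the medians being 16316703.5 and 16112862. The unit of the levels is CPM, the count as a share of the library's total after edgeR's TMM scaling, and levels are compared between clones for 1 gene at a time, since no gene lengths were used. Differences are log2 fold changes (log2FC) of A against N clones with their standard error (SE), and adjusted p-values are those of the quasi-likelihood test in edgeR, adjusted by Benjamini-Hochberg over the 12900 genes that passed its filter on low counts; a gene was called at an adjusted p under 0.05. In bulk RNA, fewer cells that express a receptor and less RNA per cell cannot be told apart. Of 10 markers of MSCs all passed the filter and none was called, with a summed level of 9495 to 21414 CPM in N and 13978 to 25042 CPM in A clones. Among 8 proliferation markers 5 were called, all lower in A clones (62.5%, beside 20.6% of all genes tested). Their sums were 112 to 559 CPM in N and 26.5 to 336 CPM in A clones. Mesothelial markers summed to 9153 and 6505 CPM in N clones 22-5 and 22-9, to between 8.80 and 276 CPM in the other N clones, and to between 7.71 and 1094 CPM in A clones; CALB2, 1 of the 9 markers, had no count in any N clone, and MSLN was the 1 of 6 tested that was called, lower in A clones (log2FC -1.97). The count of receptors called in A against N is therefore also given below without N clones 22-5 and 22-9. The counts for gene lists, the interaction and animal 22 alone include these clones. Macrophage markers summed to 0.884 to 10.7 CPM in N (median 2.48) and 2.82 to 12.6 CPM in A clones (median 8.56); CD68, the 1 tested, was higher in A clones (log2FC 1.06), and PTPRC was counted in 1 clone of each group. Endothelial markers summed to at most 41.1 and 23.6 CPM, with CLDN5 at 0 in every clone. Adipocyte markers summed to 4.55 to 122 CPM in N (median 18.3) and 16.9 to 96.6 CPM in A clones (median 42.9), where LEP did not exceed 0.204 CPM and ADIPOQ did not exceed 1.51 CPM; of 4 tested, PLIN1 was called, higher in A clones (log2FC 0.53). Smooth muscle markers summed to 1077 to 9962 CPM in N and 4048 to 11324 CPM in A clones, and 1 of the 5, MYH11, was called and higher in A clones. The part of these markers in the receptor differences was not tested.

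Of the 36 receptors, 26 passed the low-count filter, of which 12 were called, 4 higher and 8 lower in A clones. That is 46.2% of the receptors tested, where 20.6% of all genes tested were called, 10.3% higher and 10.3% lower. RORA, VDR, NR1H3 and NR2C1 rose, while RARA, RARB, RARG, THRA, PPARA, NR2C2, NR2F2 and ESRRA fell. Changes of at least 2-fold were called in 3 of the 26 (RORA up, RARG and NR2F2 down), beside 5.76% of all genes tested. That 5.76% was made up of 3.95% up and 1.81% down. The other 9 called receptors changed by less. Among all genes, 743 of the 2658 called changed by at least 2-fold. The median log2FC over the 26 receptors was -0.27, beside -0.01 over all genes tested. Of the 26, 10 (38.5%) had a lower mean in A clones within each of the 4 animals, beside 17.3% of all genes, and 2 (7.69%) a higher one, beside 15.7%. No receptor separated all A from all N clones, which 0.233% of all genes did in the higher and 0.093% in the lower direction. edgeR's fit to counts summed per animal and condition, which leaves 4 A and 4 N values, called 0 receptors, with 11 of the 27 that passed its filter at an unadjusted p under 0.05, beside 15.3% of all genes in that fit. Without N clones 22-5 and 22-9, 8 of the 26 receptors were called, all of them among the 12, beside 14.2% of all genes in that fit.

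**Figure D1:**
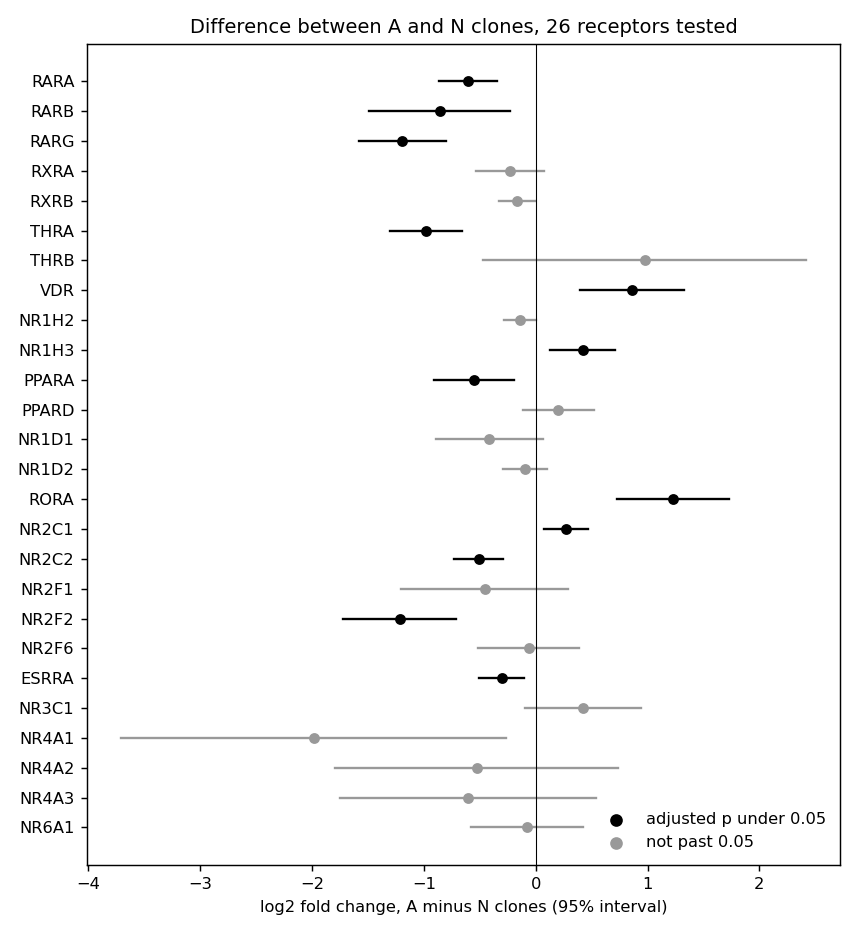
Log2 fold change of A against N clones for the 26 receptors tested, with approximate 95% intervals. The intervals were computed from the log2FC and an SE derived from edgeR's test statistic, and can differ slightly from the test. Black points are past an adjusted p of 0.05 and grey points are not. The points of RARG, NR2F2 and THRA lie furthest to the left among the called receptors, RORA lies furthest to the right, and the interval of NR4A1 is the widest.

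The retinoic acid receptors RARA, RARB and RARG, which bind all-trans retinoic acid and act with an RXR, all fell in A clones. RARG ranged from 21.3 to 58.2 CPM in N clones (median 41.1) and from 11.1 to 28.2 CPM in A clones (median 15.7). The groups overlapped, but 6 A clones lay under the lowest N clone, and the highest A levels were in 23-14 and 23-108. Its log2FC was -1.19 (SE 0.184, adjusted p = 0.000898), and the differences within animals 17, 20, 22 and 23 were -1.01, -1.40, -1.25 and -1.07 on the log2 scale.

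RARA ranged from 53.7 to 130 CPM in N clones (median 84.3) and from 38.8 to 79.9 CPM in A clones (median 53.4). In this receptor 5 A clones lay under the lowest N clone, and the A and N clones of animal 17 were nearly level, the difference being -0.05 on the log2 scale. The log2FC of RARA was -0.60 (SE 0.122, adjusted p = 0.00395). RARB ranged from 4.97 to 37.1 CPM in N clones (median 24.4) and from 4.56 to 28.2 CPM in A clones (median 10.4). Its groups overlapped over most of their range, with N clones 22-17 and 22-5 among the low values and A clone 23-14 among the high ones. RARB had a log2FC of -0.86 (SE 0.295, adjusted p = 0.0483), close to the threshold: 16 of the 20 leave-one-clone-out fits put it over 0.05, all but those without N clones 22-5, 22-17 or 23-10 or A clone 23-14; over all 20 fits the adjusted p ranged from 0.0216 to 0.0954. Of the 17 alternatives other than leaving out 1 clone, 4 called RARB. Those that did not include the fits without the block and without N clones 22-5 and 22-9. RARA and RARG kept their call in all 20 fits without 1 clone.

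The retinoid X receptors bind 9-cis retinoids and serve as the dimer partner of many receptors of the family. RXRB was at 31.0 to 44.7 CPM in N clones (median 39.6) and 26.8 to 39.8 CPM in A clones (median 33.9). Only 2 A clones lay under the lowest N clone. Its log2FC was -0.17 (SE 0.0751, adjusted p = 0.118), with a 95% interval from -0.33 to -0.01 before adjustment. RXRA was at 20.2 to 60.7 CPM in N clones (median 29.6) and 19.7 to 44.3 CPM in A clones (median 27.4), a log2FC of -0.23 (SE 0.142, adjusted p = 0.247). The A and N clones of RXRA overlapped almost entirely. RXRG had no count in any of the 20 clones. In a list of 13 genes of retinoid supply and RAR targets, 10 were tested and the median log2FC was 0.73. Of the 10, 2 were called (20%, beside 20.6% of all genes tested), both higher in A clones. These were STRA6, the cell surface transporter of retinol, with a log2FC of 2.81 (SE 0.480, adjusted p = 0.00169), and ALDH1A1, which oxidises retinal to retinoic acid, at 2.30 (SE 0.610, adjusted p = 0.0158). CYP26B1, an enzyme that breaks down retinoic acid and a target of its receptors, had a mean of 36.9 ± 36.2 CPM in N and of 64.7 ± 57.1 CPM in A clones (± SD here and below, n = 10 each; adjusted p = 0.384).

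**Figure D2:**
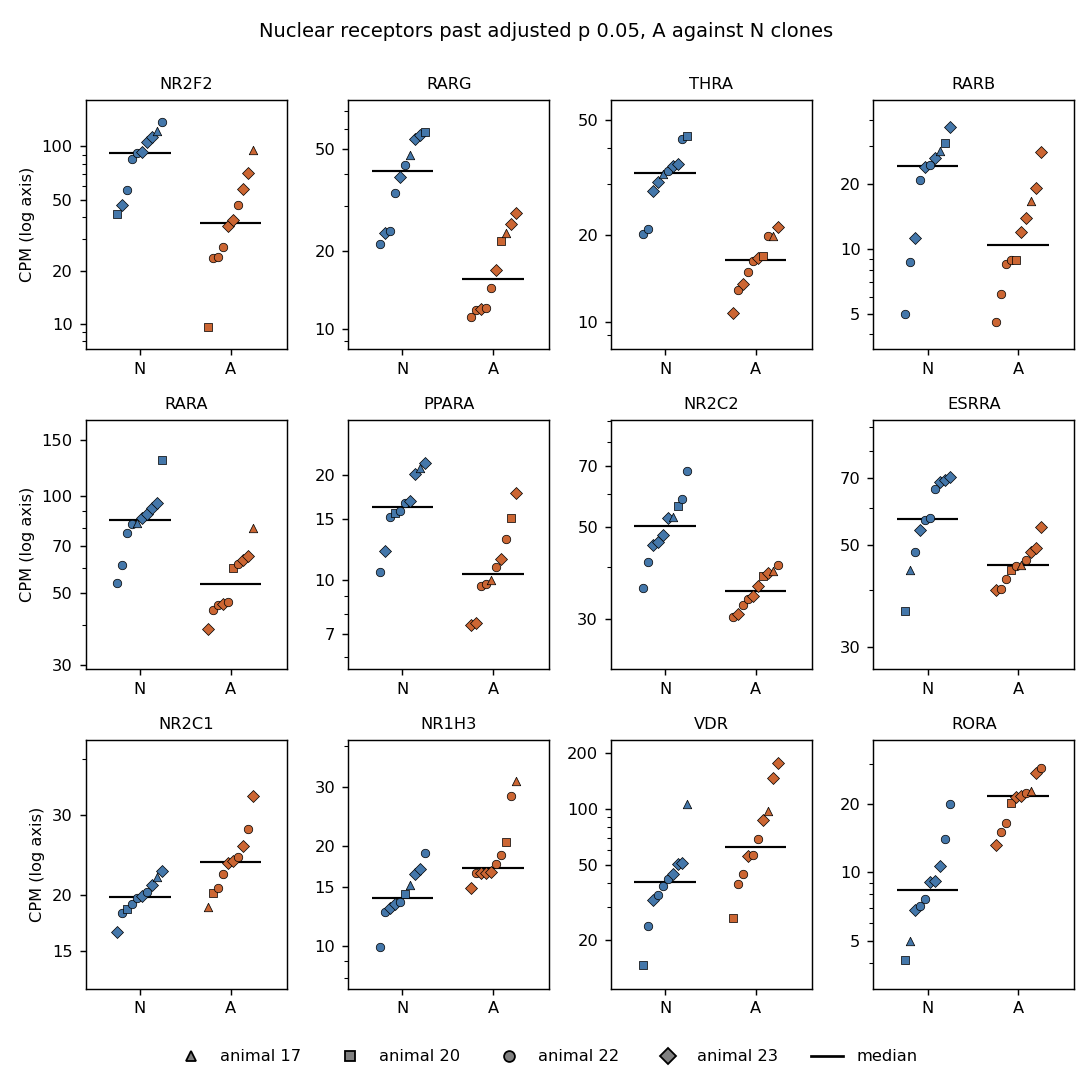
Level of each of the 12 called receptors in CPM on a log axis, by condition; each point is a clone, its shape gives the animal, and the line is the group median. In each panel the clones of the groups overlap, least in THRA, where 9 A clones lie under the lowest N clone, and in RORA, where 7 A clones lie above every N clone.

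The thyroid hormone receptors THRA and THRB bind triiodothyronine. THRA ranged from 20.1 to 44.0 CPM in N clones (median 32.8) and from 10.7 to 21.3 CPM in A clones (median 16.4). It came closest of the called receptors to separating the groups, with 9 A clones below every N clone and only 23-108 inside the N range. Its log2FC was -0.98 (SE 0.152, adjusted p = 0.000921), it was lower in A clones of all 4 animals, and it was called in all 20 fits without 1 clone. The annotated span of THRA overlaps those of NR1D1 and MED24. The paper names a directional library kit but does not state whether the counting used strand. How reads of the shared ends were counted is therefore not known.

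THRB varied far more between clones, from 0.122 CPM in N clone 20-15 to 49.2 CPM in A clone 23-14. N clones ranged from 0.122 to 27.0 CPM (median 8.35) and A clones from 2.11 to 49.2 CPM (median 16.6). In N clones 20-15 and 23-10 it had 2 and 4 counts, while the other N clones had between 34 and 938. The log2FC was 0.97 (SE 0.678, adjusted p = 0.312), and the differences within animals had no common sign, at -2.05, 4.51, 1.08 and 1.96. Among 9 genes of thyroid hormone supply and response, 4 were tested, with a median log2FC of 0.17. Of the 4, 3 were called (75%, beside 20.6% of all genes tested). SLC16A10, which carries thyroid hormone across the membrane, rose with a log2FC of 1.91 (SE 0.365, adjusted p = 0.00293), and all 10 A clones exceeded every N clone. HR, a corepressor of the thyroid hormone receptors, was lower in A clones, at -1.90 (SE 0.650, adjusted p = 0.0478). The deiodinases DIO1, DIO2 and DIO3 did not pass the filter.

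VDR, the receptor of active vitamin D, was higher in A clones. It ranged from 14.6 to 107 CPM in N clones (median 40.6) and from 26.0 to 176 CPM in A clones (median 62.8). The groups overlapped widely: N clone 17-23 stood at 107 CPM, above 8 of the A clones, and the 2 A clones above every N clone, 23-14 and 23-108, came from animal 23. For VDR the log2FC was 0.86 (SE 0.218, adjusted p = 0.0126), and the differences within animals 17, 20, 22 and 23 were -0.13, 0.83, 0.59 and 1.26. It was called in all 20 fits without 1 clone, but without the animal block its adjusted p was 0.0894, and over the 17 other alternatives the adjusted p ranged from 0.001 to 0.331. Of 3 genes of vitamin D metabolism, 1 was tested and none was called. CYP24A1, the enzyme that inactivates vitamin D and the best known VDR target, had counts in 3 of the 20 clones and at most 0.184 CPM. CYP2R1, which makes 25-hydroxyvitamin D, was at 5.52 ± 2.66 CPM in N and 7.45 ± 2.02 CPM in A clones (adjusted p = 0.325).

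**Figure D3:**
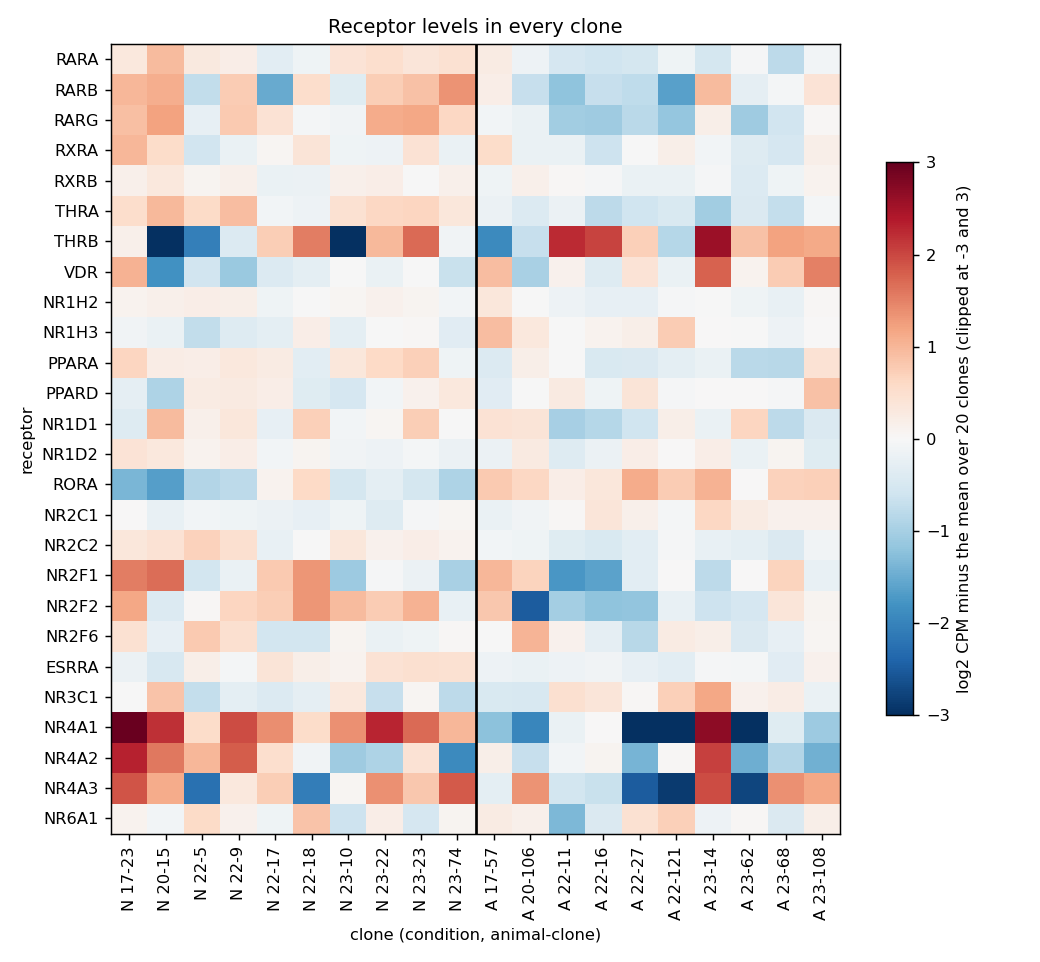
Log2 CPM of each of the 26 tested receptors in every clone, minus the mean of that receptor over the 20 clones, with red above and blue below that mean and values clipped at -3 and 3; N clones stand left of the line and A clones right of it. RARG, THRA and NR2F2 turn from mostly red to mostly blue across the line, RORA turns the other way, and A clone 23-14 is red in all 3 NR4A rows.

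Among the receptors of fatty acids and sterols, PPARA fell and NR1H3 rose in A clones. PPARA, which drives fatty acid oxidation, ranged from 10.6 to 21.7 CPM in N clones (median 16.2) and from 7.41 to 17.8 CPM in A clones (median 10.4). It lay below every N clone in 5 A clones and had a log2FC of -0.55 (SE 0.169, adjusted p = 0.0301), with a lower mean in all 4 animals. It lost its call in 5 of the 20 fits without 1 clone, those without N clones 17-23, 22-9, 23-22 or 23-23 or A clone 17-57 (adjusted p of at most 0.0616), and in the fit without N clones 22-5 and 22-9. PPARD, the most widely expressed of the PPARs across tissues, was at 32.5 ± 8.31 CPM in N and 36.9 ± 9.91 CPM in A clones, a log2FC of 0.20 (SE 0.150, adjusted p = 0.342). Of 10 PPAR targets, 8 were tested (median log2FC 0.49) and 1 was called (12.5%, beside 20.6% of all genes tested). The called gene was PLIN2, a lipid droplet coat protein, with a log2FC of 0.73 (SE 0.241, adjusted p = 0.0413). For comparison, PPARG itself was at 0.933 ± 1.91 CPM in N and 10.3 ± 5.65 CPM in A clones (log2FC 3.77, adjusted p = 0.00486).

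NR1H3 (LXR alpha) and NR1H2 (LXR beta) bind oxysterols and switch on genes of cholesterol efflux and fatty acid synthesis. NR1H3 ranged from 9.89 to 19.1 CPM in N clones (median 13.9) and from 15.0 to 31.3 CPM in A clones (median 17.1). Most A clones sat in the upper part of the N range, and 3 exceeded it, the highest being 17-57. For NR1H3 the log2FC was 0.42 (SE 0.136, adjusted p = 0.0366), higher in A clones in all 4 animals, but 11 of the 20 fits without 1 clone put it over 0.05, with adjusted p-values from 0.0173 to 0.0813 over all 20 (the call held without N clones 22-18, 23-22 or 23-23, without A clones 22-11 or 22-16, and without any 1 A clone of animal 23), and so did the fit without N clones 22-5 and 22-9. NR1H2 varied least of the 26 receptors tested, from 50.2 to 63.2 CPM in N clones (median 58.3) and from 45.9 to 69.2 CPM in A clones (median 51.5). Its log2FC was -0.14 (SE 0.0666, adjusted p = 0.135), so the LXRs had estimates of opposite sign. Of 11 genes of sterol ligands and LXR targets, 10 were tested, with a median log2FC of 0.48. Of the 10, 6 were called (60%, beside 20.6% of all genes tested), 3 higher and 3 lower. SCD, which desaturates fatty acids, and SREBF1, the factor that drives lipogenesis, are LXR targets and were lower in A clones, with log2FCs of -2.30 (SE 0.458, adjusted p = 0.00377) and -0.92 (SE 0.196, adjusted p = 0.00519). LPCAT3, a phospholipid enzyme and LXR target, was lower at -0.71 (SE 0.170, adjusted p = 0.00948), while APOE, a lipoprotein component and also an LXR target, was higher at 1.93 (SE 0.408, adjusted p = 0.00509). The other called genes act on the ligands: CH25H, which makes 25-hydroxycholesterol, had a log2FC of 3.53 (SE 0.907, adjusted p = 0.0138), and CYP7B1, an oxysterol hydroxylase, one of 1.34 (SE 0.405, adjusted p = 0.0284).

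Of the receptors tied to the circadian clock, RORA rose by more than 2-fold and the REV-ERBs were not called. RORA, which activates the clock gene ARNTL through the sites that the REV-ERBs use to repress it, ranged from 4.10 to 20.1 CPM in N clones (median 8.35) and from 13.2 to 28.8 CPM in A clones (median 21.6). In 7 A clones it exceeded every N clone, and the N clones nearest to the A clones, 22-18 and 22-17, both came from animal 22. RORA had a log2FC of 1.23 (SE 0.235, adjusted p = 0.00293), with A clones higher by 2.17, 2.28, 0.84 and 1.19 in animals 17, 20, 22 and 23, and it was called in all 20 fits without 1 clone. NR1D1 (REV-ERB alpha) was at 13.1 to 33.1 CPM in N clones (median 18.4) and 8.54 to 27.0 CPM in A clones (median 13.9). Although 5 A clones lay under the lowest N clone, the A clone of animal 17 exceeded its N clone, and the log2FC was -0.41 (SE 0.225, adjusted p = 0.195). NR1D2 (REV-ERB beta) was at 62.2 ± 9.12 CPM in N and 58.0 ± 9.49 CPM in A clones (adjusted p = 0.476).

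All 14 other clock genes listed were tested, with a median log2FC of 0.19. Of the 14, 4 were called (28.6%, beside 20.6% of all genes tested), 2 higher and 2 lower. NPAS2, a paralog of CLOCK, rose with all 10 A clones above every N clone (log2FC 2.39, SE 0.470, adjusted p = 0.00347), and CRY2 rose by 0.41 (adjusted p = 0.0415). NFIL3 and CIART, repressors within the clock, fell, with log2FCs of -0.81 and -0.92. ARNTL was at 19.1 ± 4.59 CPM in N and 34.9 ± 22.1 CPM in A clones and missed the threshold (adjusted p = 0.0676).

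The testicular receptors NR2C1 and NR2C2 are orphan receptors that bind the same repeats as the retinoid and thyroid receptors, and they were called in opposite directions. NR2C2 (TR4) ranged from 35.7 to 68.0 CPM in N clones (median 50.2) and from 30.3 to 40.4 CPM in A clones (median 35.0). In 5 A clones it lay below every N clone, and the difference was close to the same in each animal, at -0.43, -0.56, -0.53 and -0.46 on the log2 scale. Its log2FC was -0.51 (SE 0.102, adjusted p = 0.00377), called in all 20 fits without 1 clone. In animal 22, however, N clones 22-5 and 22-9 were at 68.0 and 58.3 CPM and 22-17 and 22-18 at 35.7 and 41.1 CPM. The A clones of that animal were at 30.3 to 40.4 CPM. Without N clones 22-5 and 22-9 the log2FC of NR2C2 was -0.38 (adjusted p = 0.00752 from edgeR). NR2C1 (TR2) ranged from 16.5 to 22.6 CPM in N clones (median 19.8) and from 18.8 to 33.1 CPM in A clones (median 23.6). It exceeded every N clone in 6 A clones, and the differences within animals 17, 20, 22 and 23 were -0.22, 0.12, 0.29 and 0.40. NR2C1 was thus lower in the A clone of animal 17, as NR2C2 was. It was called with a log2FC of 0.27 (SE 0.0916, adjusted p = 0.0441). That call held in 5 of the 20 fits without 1 clone, those without either clone of animal 17 or 20 or without A clone 22-121, and was lost without N clones 22-5 and 22-9. Over all 20 fits the adjusted p ranged from 0.0218 to 0.0806.

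The COUP transcription factors NR2F1, NR2F2 and NR2F6 are orphan receptors that mostly act as repressors, and NR2F2 is known as a mesenchymal and venous regulator. NR2F2 ranged from 41.4 to 137 CPM in N clones (median 92.3) and from 9.64 to 95.8 CPM in A clones (median 37.1). It lay below every N clone in 6 A clones, was lowest in A clone 20-106 and highest among A clones in 17-57. NR2F2 had a log2FC of -1.22 (SE 0.238, adjusted p = 0.00334), with differences of -0.35, -2.09, -1.60 and -0.80 in animals 17, 20, 22 and 23. It was called in all 20 fits without 1 clone, but not when a whole animal 22 or 23 was left out. Its adjusted p from edgeR was then 0.0658 without animal 22 and 0.0636 without animal 23. NR2F1 was at 89.1 ± 62.6 CPM in N and 61.0 ± 34.4 CPM in A clones (log2FC -0.46, SE 0.351, adjusted p = 0.363). The highest NR2F1 levels, 194 and 176 CPM, were in the N clones of animals 20 and 17. NR2F6 was at 8.54 ± 2.78 CPM in N and 8.42 ± 3.22 CPM in A clones (adjusted p = 0.854).

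ESRRA, an orphan receptor that controls mitochondrial genes with PGC-1 coactivators, fell slightly. It ranged from 35.9 to 70.2 CPM in N clones (median 56.9) and from 39.9 to 54.6 CPM in A clones (median 45.1), so that every A clone lay within the N range. The log2FC was -0.30 (SE 0.0933, adjusted p = 0.0298), with differences of -0.39 and -0.45 in animals 22 and 23 but of 0.03 and 0.30 in animals 17 and 20. It lost its call in 5 of the 20 fits without 1 clone, those without N clones 23-22, 23-23 or 23-74 or A clones 22-27 or 23-68 (adjusted p of at most 0.0533). Its span overlaps that of TRMT112. NR3C1, the glucocorticoid receptor, through which the dexamethasone of common adipogenic media acts, was at 51.9 to 160 CPM in N clones (median 72.9) and 63.1 to 200 CPM in A clones (median 99.96). Only A clone 23-14 exceeded every N clone. The log2FC was 0.42 (SE 0.243, adjusted p = 0.217), with differences of 0.82 and 0.60 in animals 22 and 23 and of -0.44 and -1.34 in animals 17 and 20. Among 9 genes of glucocorticoid supply and response, 7 were tested (median log2FC 0.16) and 1 was called (14.3%, beside 20.6% of all genes tested). This was DUSP1, a phosphatase that is also an immediate early gene, which fell by 0.74 on the log2 scale (adjusted p = 0.0194). NR6A1, a receptor of germ cells and early embryos, was at 4.69 ± 1.52 CPM in N and 4.40 ± 1.56 CPM in A clones (adjusted p = 0.844).

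**Figure D4:**
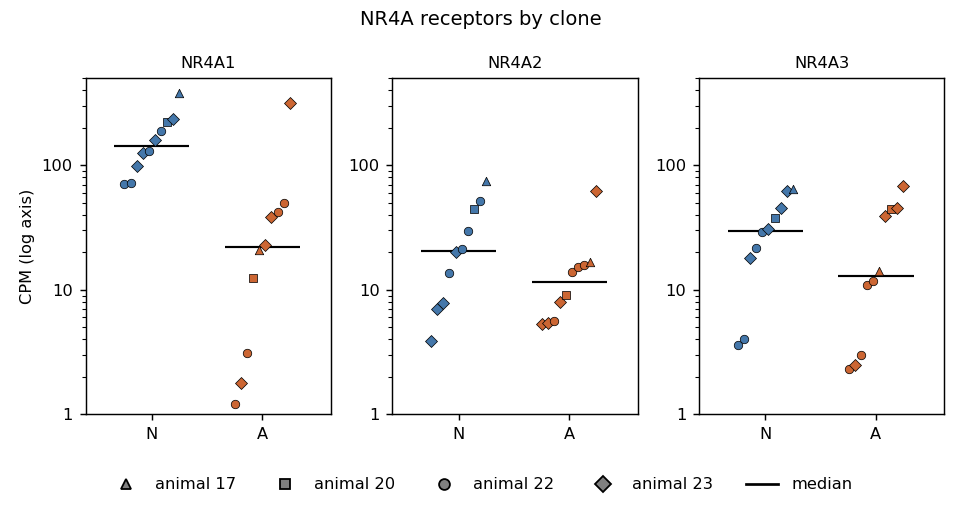
Level of NR4A1, NR4A2 and NR4A3 in CPM on a log axis by condition; each point is a clone, its shape gives the animal, and the line is the group median. In NR4A1 9 A clones lie under the lowest N clone and A clone 23-14 stands at 316 CPM, and the groups overlap in NR4A2 and NR4A3.

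The NR4A receptors are orphan receptors induced within a short time by serum, stress and cyclic AMP, as immediate early genes are. None of the 3 was called, although NR4A1 had the largest estimate of all 26 receptors tested. NR4A1 ranged from 71.4 to 380 CPM in N clones (median 145) and from 1.22 to 316 CPM in A clones (median 22.0). Of the A clones, 9 were at or under 49.5 CPM, below every N clone, and 23-14 alone was at 316 CPM. The log2FC was -1.99 (SE 0.807, adjusted p = 0.0874), and the difference in mean log2 CPM was negative in animals 17, 20, 22 and 23, at -4.18, -4.16, -3.45 and -2.45. Without A clone 23-14 the log2FC was -2.88 and the adjusted p 0.0101; over all 20 fits without 1 clone the adjusted p ranged from 0.0101 to 0.147. DESeq2 with the block and limma-voom called NR4A1, with adjusted p-values of 0.0246 and 0.0088, and the range over the 17 alternatives was 0.0088 to 0.716.

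NR4A2, whose span overlaps that of GPD2, was at 27.4 ± 23.0 CPM in N and 15.7 ± 16.9 CPM in A clones (log2FC -0.53, SE 0.594, adjusted p = 0.548). A clone 23-14 was again apart, at 62.0 CPM beside 16.8 CPM in the next A clone, and leaving it out gave a log2FC of -1.21 (adjusted p = 0.0249, of 0.0249 to 0.752 over the 20 fits without 1 clone). NR4A3 was at 31.7 ± 21.3 CPM in N and 24.2 ± 23.2 CPM in A clones (adjusted p = 0.435), and A clone 23-14 was at 67.9 CPM, the highest of all 20 clones. Of 11 other immediate early genes, all tested, 5 were called lower in A clones, all 5 by at least 2-fold, and none was called higher. That is 45.5% called, beside 20.6% of all genes tested. The estimate was negative in 7 of the 11 and positive in 4, and their median log2FC was -0.32. FOS, FOSB, EGR1 and JUN, subunits of AP-1 and a zinc finger factor, had log2FCs of -2.54, -2.24, -2.11 and -1.12 (adjusted p = 0.00251, 0.0326, 0.0149 and 0.00134), and in JUN all 10 A clones lay under the lowest N clone. The summed level of the 11 genes was 1102 to 3392 CPM in N clones and 349 to 1841 CPM in A clones, highest among A clones in 23-14. Proliferation markers were also lower in A clones, as given above, and the part of either group of genes in the receptor differences was not tested.

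The remaining 10 receptors did not pass the filter on low counts. RXRG and ESRRB had no count in any clone, where 3 counts would correspond to 0.0763 to 0.216 CPM. The other 8 had counts in some clones.

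**Figure D5:**
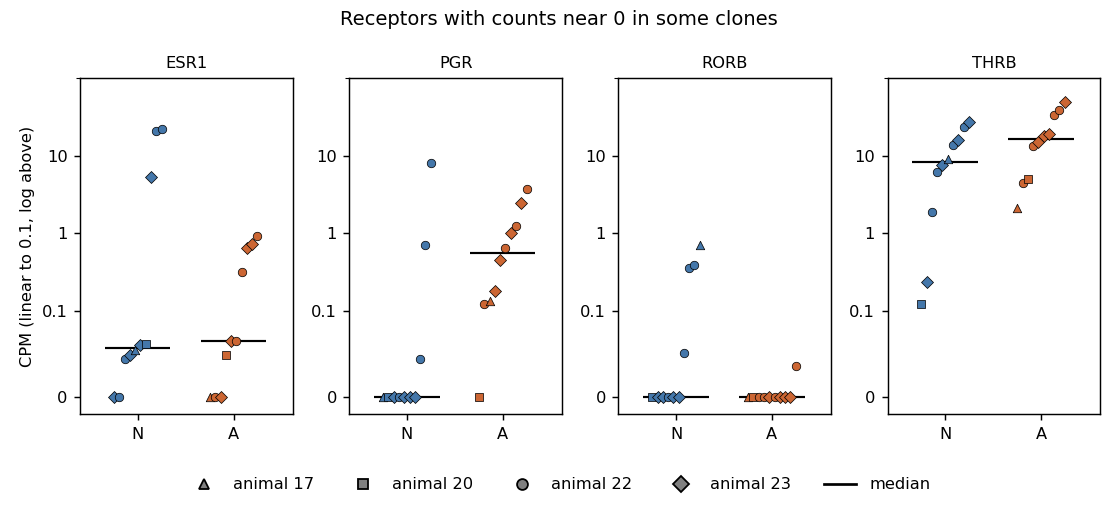
Level of ESR1, PGR, RORB and THRB in CPM by condition, on an axis that is linear up to 0.1 and logarithmic above it; each point is a clone, its shape gives the animal, and the line is the group median. ESR1 reaches 5.30 CPM or more in N clones 22-5, 22-9 and 23-10 and in no other clone, PGR is counted in 9 A clones but in 3 N clones, and THRB spans 0.122 to 49.2 CPM.

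ESR1, the oestrogen receptor alpha, was at 20.7 CPM in N clone 22-5, 22.6 CPM in N clone 22-9 and 5.30 CPM in N clone 23-10, with 368, 378 and 90 counts. The other 7 N clones had at most 1 count, and the highest A clones, 22-11 and 23-108, had 26 and 18 counts. The N clones 22-5 and 22-9 are those with the highest mesothelial marker sums, and A clone 22-11 had the highest sum of the A clones, at 1094 CPM. The sums did not follow ESR1 in every clone: N clone 23-10, with 90 counts of ESR1, had a sum of 236 CPM, while N clones 23-22 and 23-74 had 276 and 254 CPM with 0 and 1 counts, and A clone 22-16 had 938 CPM with 5 counts. The part of these markers in the ESR1 levels was not tested. Fitted without the filter, ESR1 had an adjusted p of 0.157. PGR, the progesterone receptor and a known ESR1 target, had 146 counts in N clone 22-5 (8.20 CPM), 12 in N clone 22-9, 1 in N clone 22-17 and none in the other N clones. In A clones it was counted in 9 of 10, with up to 57 counts in 22-27 (3.74 CPM), and only 20-106 had none. Without the filter its adjusted p was 0.449. None of the 6 other genes of oestrogen supply and response passed the filter, and CYP19A1, which makes oestrogen, had no count in any clone.

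RORB had 13 counts in N clone 17-23, 7 in 22-5, 6 in 22-9 and 2 in 22-18, none in the other N clones, and 1 count among all A clones, in 22-11 (adjusted p = 0.0648 without the filter). The oestrogen receptor beta ESR2 had at most 2 counts in an N clone and 6 in an A clone. ESRRG, the third oestrogen-related receptor, had at most 9 counts in an N clone and 4 in an A clone. NR3C2, the mineralocorticoid receptor, reached 16 counts in an N clone and 4 in an A clone. NR5A2, which controls bile acid and steroid synthesis, reached 3 and 2 counts, and NR0B1, a repressor of steroidogenesis, had at most 1 count, in 2 A clones. Without the filter none of these 5 receptors was called, and the adjusted p ranged from 0.264 to 0.895.

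Of 12 nuclear receptors outside the 36, 3 were tested, and PPARG was the one called. HNF4G was at 0.468 ± 0.507 CPM in N and 1.18 ± 0.591 CPM in A clones (adjusted p = 0.0977). Among those under the filter, NR2E1 had at most 5 counts in an N clone and 11 in an A clone, 9 A clones exceeded every N clone, and without the filter it was called higher in A clones (adjusted p = 0.00633). NR5A1 reached 816 counts (20.8 CPM) in an N clone, with at most 29 counts in an A clone (adjusted p = 0.444 without the filter). Among the coactivators that receptors recruit when bound by ligand, all 10 were tested and 2 were called, both lower in A clones: NCOA3 with a log2FC of -0.64 and CREBBP with -0.40 (adjusted p = 0.0286 and 0.0278). Among corepressors, all 9 were tested and 3 were called, all lower: TBL1X with a log2FC of -0.70, SIRT1 with -0.47 and SIN3A with -0.34 (adjusted p = 0.00684, 0.0107 and 0.033). These shares, 20% and 33.3%, stand beside 20.6% of all genes tested, and the median log2FCs were -0.18 and -0.15.

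Whether the difference between A and N clones was the same in animals 22 and 23, which gave 4 clones of each kind, was tested with the interaction of condition and animal over these 16 clones. edgeR called none of the 26 receptors, beside 0.031% of the 12915 genes tested. With edgeR 1 of the 26 had an unadjusted p under 0.05, beside 9.06% of all genes. DESeq2 called 0 as well, with 2 at an unadjusted p under 0.05. The 1 receptor from edgeR was NR2F1, in which N and A clones of animal 22 had 87.4 ± 50.4 and 37.0 ± 21.5 CPM, and those of animal 23 had 43.1 ± 15.6 and 61.1 ± 26.0 CPM (SD, n = 4 each). Its interaction was 1.75 on the log2 scale (SE 0.687, adjusted p = 0.488 from edgeR). Within animal 22 alone 1 of the 26 receptors was called, RARG, beside 1.15% of all genes. Within animal 23 alone 4 of the 26 were called, NR2C2, RARA, RORA and THRA, beside 6.22%.

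The receptors differed in how much clones of the same condition varied. The coefficient of variation, averaged over A and N clones, was smallest in NR1H2 (10.3%), RXRB (11.2%) and NR2C1 (13.2%) and largest in NR4A1 (121%), NR4A2 (95.7%), THRB (84.4%) and NR4A3 (81.4%). The less variable receptors include called genes of small fold change, while NR4A1 combined the largest estimate with the largest averaged spread. That average joined 186% in A clones with 55.9% in N clones, where THRB was at 89.5% and NR4A2 at 83.8%. Among A clones NR4A1 was at 316 CPM in 23-14 and at 49.5 CPM in the next.

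Receptors were also set beside genes they are known to regulate, or are induced with, over the 16 clones of animals 22 and 23, with log2 CPM centred within animal and condition. Of 10 pairs, 9 could be computed, and none passed an adjusted p of 0.05 in the permutation test within animal and condition. NR4A1 had a Pearson r of 0.721 with FOS (permutation p = 0.0262, adjusted p = 0.122; rho 0.535, p = 0.0981) and of 0.762 with EGR1 (permutation p = 0.0272, adjusted p = 0.122; rho 0.541, p = 0.113). Without the 2 clones farthest from the median NR4A1 level r was 0.383 and 0.578 (permutation p = 0.187 and 0.276). NR1D1 had an r of -0.476 with its repression target ARNTL (permutation p = 0.159, adjusted p = 0.287; rho -0.556, p = 0.0782). NR3C1 had an r of 0.438 with its target FKBP5 (permutation p = 0.0654, adjusted p = 0.196; rho 0.450, p = 0.0786). The other 5 pairs had r between -0.240 and 0.443. The pair of VDR and CYP24A1 was not computed, since the median clone had 0 counts of CYP24A1.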

How the data were processed

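The labels give condition, animal and clone. The deposited values are raw counts of reads per gene; per the labels and methods the authors used bcl2fastq 2.20, Trimmomatic 0.36, STAR 2.5.2b (build ARS-UCD1.2) and featureCounts of Subread 1.5.2. The strand setting is not stated, and in a table of another assembly the spans of NR1D1, THRA, ESR2, ESRRA, NR3C2 and NR4A2 overlap a protein-coding gene. From these counts, edgeR 4.0.16 in R 4.3.3 fitted all genes (TMM, default filter, robust quasi-likelihood, animal as a block). A row without a name (0.113 to 0.333% of counts) was left out. The CPM levels and log2 CPM (prior count 2) were computed here. Columns outside the series numbered 0. Alternatives were no block, DESeq2 1.42.0, limma-voom 3.58.1, other scaling and filters, sums per animal, single animals, and animals or clones left out; 2 were added after seeing the data. The tests were checked on simulated counts. Members and gene lists were chosen with earlier results of these data known. All 36 members are named, clone values go to called members and the 6 next by p, and up to 4 called genes are named per list, besides the partners of pairs and genes without counts; CH25H, CYP7B1, NR2E1 and NR5A1 were named after their values were seen. The results of 2 listed genes are not reported here. A and N clones of an animal deviated together (r = 0.253, 0.192, 0.241 and 0.440), and the pairing comes from the animals. Clones of an animal are separate cell populations, so p-values measure the spread between clones.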

Additional observations from a re-analysis of the deposited data

Results flagged for a closer look

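In 52 groups of 10 clones (26 receptors by condition), the gap between an extreme clone and its neighbour was examined on log2 CPM, and 2 groups had a gap beyond Dixon's 95% limit; chance gives about 2.6. On CPM, a scale chosen after seeing the data, 6 groups had such a gap. NR4A2 in A clones had a gap ratio of 0.534 on log2 CPM, from clone 23-14 at 62.0 CPM beside 16.8 CPM in the next A clone. NR1H2 in A clones had a gap ratio of 0.530 on log2 CPM, from clone 17-57 at 69.2 CPM beside 55.7 CPM.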

How the results depend on the processing

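The count of called receptors was 12 (4 higher, 8 lower). It was 13 in the fit without A clone 23-14, of which 11 were among the 12 and the others were NR4A1 and NR4A2. In every other of the 20 fits without 1 clone it was 8 to 10. Without the replicate block, for which the animals give the pairing, it was 10, with RARB and VDR lost. It was 0 with counts summed per animal and condition, 1 in animal 22 alone and 4 in animal 23 alone. Without animal 22 it was 5 (NR2C2, RARA, RARG, RORA and THRA), and without animal 23 it was 1 (RARG). These fits hold fewer samples. The share of all genes called is not given here for the fits without the block, 1 clone, animal 22 or animal 23. Whether their lower counts are particular to the receptors was not tested. RARA, RARG, THRA, RORA, VDR, NR2C2 and NR2F2 were called in all 20 fits without 1 clone, PPARA and ESRRA in 15, NR1H3 in 9, NR2C1 in 5 and RARB in 4. Over the 17 other alternatives no called receptor changed sign. The uncalled ones with a change of sign, by an untested cause, were NR2F6 (0.059 by limma-voom, 0.17 with summed counts, 0.098 without animal 22, 0.20 without N clones 22-5 and 22-9, and -0.20 to 0.057 without 1 clone), NR3C1 (-0.082 with summed counts), NR6A1 (0.095 in animal 23 alone, 0.13 without animal 22, -0.17 to 0.047 without 1 clone), NR2F1 and NR4A2 (0.51 and 1.06 in animal 23 alone, 0.087 and 0.055 without animal 22) and NR1D2 (0.072 in animal 23 alone). Correlations with a change of sign were NR1D1 with NR1D2 (-0.018 over 20 clones), NR1H3 with ABCA1 (-0.18 over 20 clones, -0.091 without 2 clones) and RARB with CYP26B1 (0.37 without 2 clones). RXRG and ESRRB had 0 counts in every clone, which for any 1 clone taken alone still allows an expected count of up to about 3.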
